A study of Mus musculus with 6 samples.

Results

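The genes described here are 10 phosphatases that blood cells use to switch off, or in some cases switch on, signalling by tyrosine kinases and PI 3-kinase. They were taken by symbol from the table of read counts, which holds 25628 symbols, and all 10 were found and tested. Ptpn6, Ptpn11, Ptpn7, Ptpn22, Ptprc, Ptpre and Ptprj encode tyrosine phosphatases, Inpp5d and Inppl1 encode inositol lipid phosphatases, and Ubash3b encodes a phosphatase of another fold that also acts on phosphotyrosine. The RNA came from mouse TgSpi1 cells of line number 722, leukaemic erythroid cells from bone marrow that overexpress Spi1, the gene of the transcription factor PU.1. Both groups carried an shRNA against Spi1 that doxycycline induces, and both grew with erythropoietin. One group received doxycycline for 48 h and the other did not, with 3 libraries in each, numbered 1 to 3. All libraries are of 1 line, and the labels do not name the promoter that drives the transgene. No doxycycline-treated cells without the shRNA were analysed here, so the drug and the shRNA cannot be told apart.

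A tyrosine kinase cascade is held in check by enzymes that take the phosphate off again. The phosphatases with paired SH2 domains, SHP-1 (Ptpn6) and SHP-2 (Ptpn11), dock on phosphorylated receptors; SHP-1 is largely restricted to blood cells and dampens signalling from receptors such as that of erythropoietin, whereas SHP-2 is present in most tissues and mainly promotes RAS and ERK signalling. SHIP1 (Inpp5d) and SHIP2 (Inppl1) form a similar pair, the first of blood cells and the second broadly expressed, and both degrade the lipid that PI 3-kinase makes. CD45 (Ptprc) is the common surface marker of leukocytes and is lost as red cells mature.

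Total counts lay between 78926663 and 101276319 per library. Spi1, the target of the shRNA, stood at 414, 353 and 329.5 CPM (read counts scaled to a common library total) in untreated libraries 1, 2 and 3 and at 84.7, 80.4 and 62.1 CPM with doxycycline, so that 20.7% of its mean remained. Of 12 erythroid markers, 11 exceeded 1 CPM in at least 1 library. Their summed levels lay between 5293.5 and 6547.3 CPM untreated and between 7037.1 and 9787.3 CPM with doxycycline. The rise in the sum lay mostly in Tfrc (mean 2100.7 CPM untreated and 3097.9 CPM with doxycycline) and Car2 (1653.7 and 3033.3 CPM). Means of Gata1 (274 and 268 CPM), Hbb-bt (295 and 287) and Hbb-bs (1009.6 and 775) were lower, and those of the others higher. Compared by edgeR between libraries of equal number, 7 of 11 tested were higher and 1, Hbb-bs, lower at an adjusted p under 0.05. Summed levels of the megakaryocyte and mast cell markers (11 of 12 in the table) were 368, 257 and 69.5 CPM in untreated libraries 1, 2 and 3. With doxycycline they were 210.3, 145 and 47.3 CPM. Most of these sums lay in Pf4 (mean 154 CPM untreated and 86.1 CPM with doxycycline) and Fcer1a (32.9 and 27.4 CPM). Fcer1a was higher with doxycycline in libraries numbered 3 (2.65 and 8.40 CPM). Compared by edgeR in the same way, 6 of 10 tested were lower and 1, Vwf, higher. Those of the monocyte, macrophage and neutrophil markers (13 of 14) were 5.11, 37.5 and 10.9 CPM untreated and 0.91, 9.33 and 8.55 CPM with doxycycline. Both sums were thus lower with doxycycline between libraries of equal number. The part of these cell types in the changes below was not tested. In bulk RNA, fewer cells of a type and less RNA per cell cannot be told apart.

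The 4 promoters of the SHP and SHIP pairs are printed because 1 gene of each pair fell with doxycycline and the other did not pass the test. Each is the 250 bases before a start site in RefSeq's GRCm38.p6 table, 5′ to 3′ along the gene's strand, and where the table has more than 1 start the one nearest the annotated gene start is shown. Capitals mark GAGGAA, the core that PU.1 prefers, on either strand.
Ptpn6, chr6:124738710-124738959, minus strand: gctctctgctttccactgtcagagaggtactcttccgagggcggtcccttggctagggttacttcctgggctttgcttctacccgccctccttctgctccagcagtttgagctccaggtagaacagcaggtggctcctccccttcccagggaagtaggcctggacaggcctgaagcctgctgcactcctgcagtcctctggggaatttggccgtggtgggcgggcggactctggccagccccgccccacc
Ptpn11, chr5:121191398-121191647, minus strand: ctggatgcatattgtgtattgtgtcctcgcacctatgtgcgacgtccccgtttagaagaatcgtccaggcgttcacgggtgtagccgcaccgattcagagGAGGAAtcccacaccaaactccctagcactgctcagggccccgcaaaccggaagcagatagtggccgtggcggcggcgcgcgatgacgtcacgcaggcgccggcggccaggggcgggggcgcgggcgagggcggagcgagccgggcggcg
Inpp5d, chr1:87620062-87620311, plus strand: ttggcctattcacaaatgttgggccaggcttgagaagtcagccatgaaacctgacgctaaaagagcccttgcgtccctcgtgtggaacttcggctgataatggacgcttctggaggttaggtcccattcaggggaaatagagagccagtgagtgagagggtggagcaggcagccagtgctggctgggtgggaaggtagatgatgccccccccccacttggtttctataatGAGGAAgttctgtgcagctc
Inppl1, chr7:101838227-101838476, minus strand: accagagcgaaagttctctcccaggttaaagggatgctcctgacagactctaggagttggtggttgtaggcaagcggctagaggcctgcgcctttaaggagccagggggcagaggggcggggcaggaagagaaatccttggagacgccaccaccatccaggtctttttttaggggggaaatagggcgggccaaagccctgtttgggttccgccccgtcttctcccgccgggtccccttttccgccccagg

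The Inpp5d promoter held GAGGAA with its first base 20 bases before the start, followed by GT, which makes the longer form GAGGAAGT. Another GAGGAA, on the opposite strand, lay past the printed stretch, from base 4 counted from the start. The stretches before Ptpn6 and Inppl1 held no GAGGAA, and that before Ptpn11 held 1. Over the windows of 300 bases in the same table, from 250 before to 50 after the start, the 10 genes had 18 entries, some overlapping, of which 10 held GAGGAA on either strand and 1 held GAGGAAGT. Among all 32851 windows 28.3% held GAGGAA and 3.2% held GAGGAAGT, which contains the shorter form. At least 1 entry with GAGGAA was found for 7 of the 10 genes. Those 7 included Ptpn11, Ptprj and Ptprc, whose mRNA did not pass with or without the block, and the 3 without it were Ptpn6, Ubash3b and Inppl1. These are matches of letters in a short window and say nothing of binding.

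Of the 10 genes, 2 fell (Ptpn6 and Inpp5d) at an adjusted p under 0.05 in edgeR's quasi-likelihood test across 14158 genes, where 2.18% of all genes fell. With the replicate number as a block, 6 fell, against 15.6% of all genes: Ptpn6, Inpp5d, Ubash3b, Ptpre, Ptpn7 and Ptpn22. Of these, Ptpn22 could pass the filter on low counts only through its untreated libraries. It is also among the genes counted below as lower at an unadjusted p, without overlap and within each pair. None of the 10 rose by edgeR in either fit, where 0.417% of all genes rose without the block and 10.3% with it, none was higher and 6 were lower at an unadjusted p under 0.05, against 5.86% and 9.56% of all genes, and by DESeq2 without the block none rose and 4 fell (Ptpn6, Inpp5d, Ptpre and Ubash3b), against 2.06% and 5.1%. The median log2 fold change, doxycycline over untreated, was -1.01 for the 10 genes and 0.01 for all genes tested. In 5 of the 10 every doxycycline library lay below every untreated one, which 11.7% of all genes tested showed, and in 7 the level was lower in each pair of equal replicate number, which 29.4% showed. Leaving out both libraries numbered 1, 2 or 3 left 5, 6 and 7 of the 10 lower with the block, Ptpn22 lost in the first case and Ptprc added in the third, and 0 in the fit of group alone. Without the block, 0 of the 10 passed on leaving out untreated replicate 1, untreated replicate 2 or doxycycline replicate 1.

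**Figure D1:**
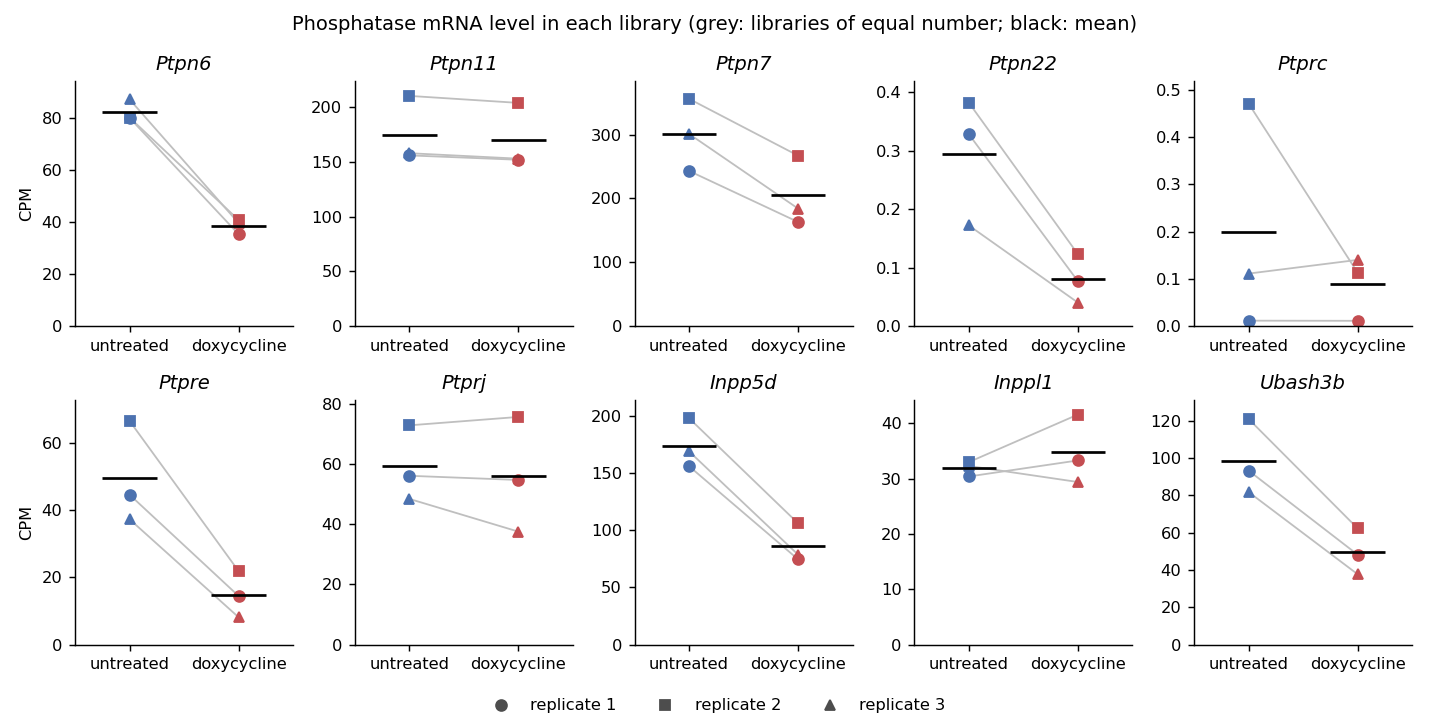
Level of each of the 10 phosphatase mRNAs in CPM (y axis, from 0 and scaled for each gene) in the untreated and doxycycline libraries (x axis); marker shapes give the replicate number, grey lines join libraries of equal number and black bars are group means. The groups stand apart for Ptpn6, Ptpn22, Ptpre, Inpp5d and Ubash3b and overlap for the other 5 genes.

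Ptpn6, which encodes SHP-1, fell, with a small spread between libraries. It lies on chromosome 6 from 124720707 to 124738714 on the minus strand (ENSMUSG00000004266.15, GRCm38). The untreated libraries 1, 2 and 3 stood at 80.1, 80.2 and 87.2 CPM and the doxycycline libraries at 35.3, 40.8 and 39.6 CPM. The groups were far apart relative to their spread, with 82.5 ± 4.09 CPM untreated and 38.6 ± 2.89 CPM with doxycycline (SD, n = 3 each), so that 46.7% of the mean remained. The fit gave a log2 fold change of -1.10 (SE 0.13, edgeR adjusted p = 0.014), with -1.18, -0.98 and -1.14 within pairs 1, 2 and 3. Adjusted p rose to 0.065, 0.07 and 0.077 without untreated replicate 1, untreated replicate 2 and doxycycline replicate 1, with fold changes between -1.12 and -1.03.

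Ptpn11, which encodes SHP-2, hardly differed between the members of any pair. The gene lies on chromosome 5 from 121130533 to 121191397 on the minus strand (ENSMUSG00000043733.14). Its levels were 156, 210.4 and 158 CPM untreated and 152, 204 and 153 CPM with doxycycline. Library 2 was the highest of its group both times and the groups overlapped. The log2 fold changes within pairs 1, 2 and 3 were -0.04, -0.04 and -0.05. The test gave -0.04 with a 95% interval from -0.48 to 0.39 (edgeR adjusted p = 0.95), and from -0.23 to 0.14 with the block.

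Because 2 counts of the same library are compared, the ratio of Ptpn6 to Ptpn11 needs no scaling between libraries. It was 0.512, 0.381 and 0.552 in untreated libraries 1, 2 and 3 and 0.233, 0.200 and 0.259 with doxycycline. Every doxycycline library was below every untreated one. The mean log2 ratio differed by -1.05 between the groups, and by -1.14, -0.93 and -1.09 within the pairs. A two-sided exact permutation test gave p = 0.10, the smallest that 3 against 3 libraries allow, and 0.10 after adjustment over the 2 ratios tested.

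The lipid phosphatases repeated this arrangement. Inpp5d, which encodes SHIP1, lies on chromosome 1 from 87620312 to 87720507 on the plus strand (ENSMUSG00000026288.14). It stood at 156, 198 and 169 CPM in untreated libraries 1, 2 and 3 and at 74.5, 106 and 78.6 CPM with doxycycline. No doxycycline library reached the lowest untreated one, and the means were 174 ± 21.9 and 86.3 ± 17.1 CPM (SD, n = 3 each), with 49.6% remaining. On the log2 scale the change was -1.01 (SE 0.18, edgeR adjusted p = 0.035), with -1.06, -0.90 and -1.10 within the pairs. This call was lost on leaving out any 1 library other than doxycycline replicate 2, with adjusted p between 0.078 and 0.14 and fold changes between -1.07 and -0.91.

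Inppl1, which encodes SHIP2, did not pass the test. This gene lies on chromosome 7 from 101822632 to 101838229 on the minus strand (ENSMUSG00000032737.13). Levels were 30.4, 33.0 and 32.3 CPM untreated and 33.3, 41.6 and 29.4 CPM with doxycycline, so the doxycycline libraries lay on both sides of the untreated ones. The log2 fold change was 0.12 with a 95% interval from -0.27 to 0.52 (edgeR adjusted p = 0.82), and from -0.14 to 0.36 with the block. Its exons share 1204 bases with those of the antisense gene Gm10602, which had between 26 and 92 counts per library against between 2590 and 4049 for Inppl1. Strand is not recorded by this library kit, so the split of reads there is uncertain.

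The ratio of Inpp5d to Inppl1 counts was 5.11, 6.01 and 5.22 untreated and 2.24, 2.55 and 2.67 with doxycycline. No doxycycline value came near an untreated one. The mean log2 ratio differed by -1.13, and by -1.19, -1.24 and -0.97 within the pairs (two-sided exact permutation p = 0.10, the smallest possible, also after adjustment over the 2 ratios).

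**Figure D2:**
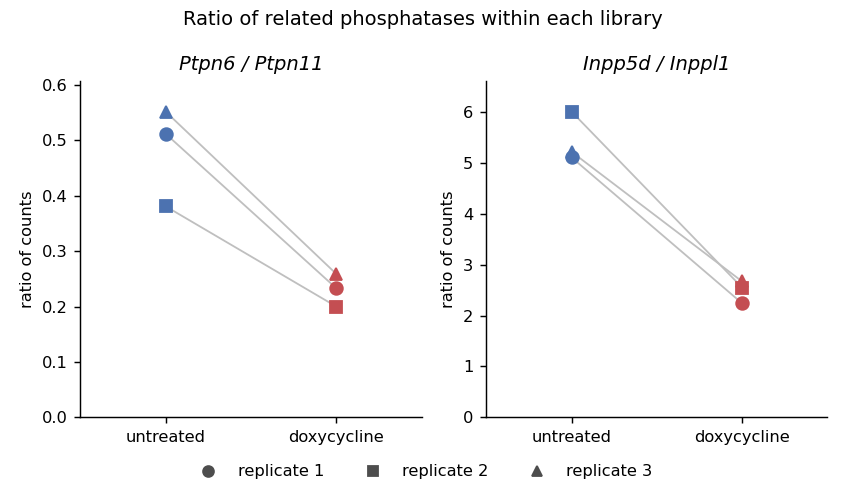
Ratio of read counts of Ptpn6 to Ptpn11 (left) and of Inpp5d to Inppl1 (right) in each library (y axes from 0), untreated and with doxycycline (x axis); marker shapes give the replicate number and grey lines join libraries of equal number. The Ptpn6 ratio goes from between 0.381 and 0.552 to between 0.200 and 0.259, and the Inpp5d ratio from between 5.11 and 6.01 to between 2.24 and 2.67.

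Another 3 genes with at least 5 mean CPM, Ubash3b, Ptpre and Ptpn7, passed edgeR's test with the block and not without it. DESeq2 without the block also called Ptpre (adjusted p = 0.00024) and Ubash3b (adjusted p = 0.0043), and not Ptpn7. Ubash3b encodes STS-1, which binds the ubiquitin ligase CBL and acts on kinases such as SYK, and lies on chromosome 9 from 41011098 to 41161697. Its levels were 93.3, 121 and 81.8 CPM in untreated libraries 1, 2 and 3 and 48.2, 62.3 and 37.7 CPM with doxycycline, with no overlap of the groups. It had a log2 fold change of -1.0 (SE 0.23, edgeR adjusted p = 0.08, and 3.3e-05 under the block), with -0.95, -0.96 and -1.12 within the pairs. Its fall within a pair was thus close to that of Ptpn6 and Inpp5d, while the untreated libraries were more unlike each other (98.7 ± 20.1 CPM; SD, n = 3).

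Ptpre, the gene of PTP epsilon, had the lowest share remaining among the 8 genes with at least 5 mean CPM. Alternative promoters give it a receptor form and a cytosolic form, and counts per symbol do not tell them apart. The gene lies on chromosome 7 from 135537481 to 135686293. It stood at 44.5, 66.4 and 37.2 CPM untreated and at 14.4, 21.8 and 8.09 CPM with doxycycline, that is 49.4 ± 15.2 and 14.8 ± 6.85 CPM (SD, n = 3 each), with 29.9% remaining. All doxycycline libraries lay below all untreated ones. Its log2 fold change came to -1.74 (SE 0.38, edgeR adjusted p = 0.07), and -1.81 with the block (SE 0.13, adjusted p = 1e-05). Pairs 1 and 2 gave -1.62 and -1.61, and pair 3 gave -2.20.

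Ptpn7, which encodes HePTP, a phosphatase of ERK and p38 in blood cells, was the most abundant of the 10 per length of transcript in either group. The gene lies on chromosome 1 from 135132700 to 135145317. It stood at 243, 356 and 301 CPM untreated and at 163, 267 and 184 CPM with doxycycline. Here the groups overlapped, since doxycycline library 2 exceeded untreated library 1, yet each doxycycline library was below its untreated partner. The log2 fold changes within pairs 1, 2 and 3 were -0.58, -0.42 and -0.71. Without the block the value was -0.55 (SE 0.23, edgeR adjusted p = 0.31), and with it -0.57 (SE 0.09, adjusted p = 0.0013).

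Ptprj, the gene of the receptor phosphatase CD148, which can activate SRC family kinases, did not pass in either fit. It lies on chromosome 2 from 90429754 to 90580647. Levels were 56.2, 73.0 and 48.5 CPM untreated and 54.8, 75.8 and 37.6 CPM with doxycycline. Library 2 was the highest and library 3 the lowest of both groups, and the groups overlapped. Pairs 1, 2 and 3 differed by -0.03, 0.05 and -0.37 on the log2 scale, and the block gave -0.12 with a 95% interval from -0.35 to 0.12 (edgeR adjusted p = 0.45). Without the block the interval ran from -0.73 to 0.57.

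**Figure D3:**
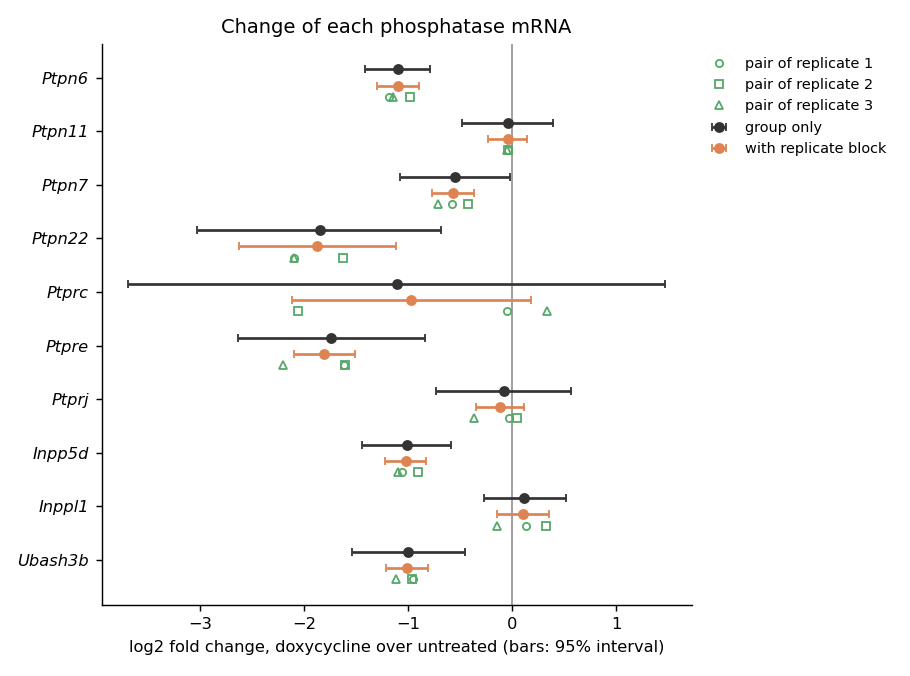
Log2 fold change, doxycycline over untreated (x axis), of each phosphatase gene (y axis): filled points with 95% intervals come from the fit of group alone (dark) and with the replicate number as a block (orange), and open markers are the 3 pairs of equal replicate number. Both intervals lie below 0 for Ptpn6, Ptpn7, Ptpn22, Ptpre, Inpp5d and Ubash3b and span 0 for Ptpn11, Ptprc, Ptprj and Inppl1; the intervals are not adjusted for the number of genes tested.

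Ptprc and Ptpn22 were nearly absent. No value in the table is below 1, and a value of 1 appears to stand for no read. Ptprc, on chromosome 1 from 138062861 to 138175708, had 1, 37 and 11 counts in untreated libraries 1, 2 and 3 and 1, 11 and 14 with doxycycline. In library 1 of both groups no read was seen, which allows a level of up to 0.034 CPM untreated and 0.0329 CPM with doxycycline (3 counts, for counting error only). The highest level in any library was 0.471 CPM, in untreated library 2. The groups overlapped and the log2 fold change of -1.11 had a 95% interval from -3.69 to 1.47 (edgeR adjusted p = 0.73). It turned to 0.50 without untreated replicate 2.

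Ptpn22 encodes a lymphoid phosphatase that works with the kinase CSK, and lies on chromosome 3 from 103859795 to 103912247. It had 29, 30 and 17 counts in the untreated libraries and 7, 12 and 4 with doxycycline, or between 0.172 and 0.382 CPM and between 0.0401 and 0.123 CPM. The groups did not overlap, at levels where few reads decide the value. The doxycycline libraries alone would not have passed the filter on low counts, so Ptpn22 was tested through its untreated level. Its log2 fold change came to -1.85 (SE 0.50, edgeR adjusted p = 0.12, and 0.0027 with the block), and without both libraries numbered 1 Ptpn22 did not pass with the block. Summed levels of the T, B and NK cell markers (10 of 14 in the table, all under 1 CPM in every library) were 0.781, 2.66 and 0.889 CPM in untreated libraries 1, 2 and 3 and 1.04, 1.62 and 0.943 CPM with doxycycline. Both these sums and those of the monocyte, macrophage and neutrophil markers, at 37.5 CPM, were highest in untreated library 2. Of the 10 phosphatases, all but Ptpn6 were highest there too. The size of this peak differed between genes. Ptprc stood at 0.0113, 0.471 and 0.111 CPM in untreated libraries 1, 2 and 3. Ptpn22 stood at 0.328, 0.382 and 0.172 CPM and Inpp5d at 156, 198 and 169 CPM. With doxycycline both sums and Ptpn22 were highest in library 2, and Ptprc in library 3, at 0.14 CPM. The T cell marker Cd3e reached at most 4 counts in a library. Others were higher, with Cd3g up to 0.863 CPM, in doxycycline library 2, and Cd247 up to 0.459 CPM, in untreated library 2. With the block Cd3g rose (log2 fold change 0.98, edgeR adjusted p = 0.041). Whether a few other blood cells contributed these reads was not tested.

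Levels of different genes were compared as CPM per kilobase of annotated exon. In the untreated libraries the order was Ptpn7 (49.2 ± 9.27), Ptpn6 (29.5 ± 1.46), Ptpn11 (23.4 ± 4.09), Inpp5d (22.9 ± 2.88), Ubash3b (13.5 ± 2.74), Ptprj (7.09 ± 1.5), Inppl1 (4.99 ± 0.207), Ptpre (4.84 ± 1.49), Ptpn22 (0.0434 ± 0.0161) and Ptprc (0.0108 ± 0.0132 CPM per kilobase; SD, n = 3 each). The ranges of Ptpn11 and Inpp5d, of Inppl1 and Ptpre, and of Ptpn22 and Ptprc overlapped. With doxycycline Ptpn11 (22.6 ± 4.01) stood above Ptpn6 (13.8 ± 1.03 CPM per kilobase) in all 3 libraries, so that the order of SHP-1 and SHP-2 transcripts per kilobase was reversed. The untreated margin was small, with Ptpn6 at 28.6 or more and Ptpn11 at 28.1 CPM per kilobase or less. Before division by length, Ptpn11 exceeded Ptpn6 in every library of both groups. Ptpre (1.45 ± 0.672) then lay below Inppl1 (5.43 ± 0.973 CPM per kilobase) without overlap. Ubash3b, Ptprj and Inppl1 were then close, and the ranges of Ubash3b and Ptprj and of Ptprj and Inppl1 overlapped. Those of Ptpn6 and Inpp5d, of Ptpn22 and Ptprc, and of Ptpn7 and Ptpn11 overlapped too, though Ptpn7 was above Ptpn11 in all 3 libraries. These levels depend on the annotated exons, which count every transcript form of a gene.

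The replicate number left its own mark on these genes. In both groups the level was highest in library 2 for 8 of the 10, all but Ptprc and Ptpn6, which 24.5% of all genes tested showed. The 10 genes share these libraries, so their counts are not separate evidence. What the numbers mark is not given in the labels.

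Genes whose pattern over the 6 libraries was most like that of 3 of the phosphatases were sought among 9301 genes of at least 5 mean CPM, by the root mean square difference of log2 CPM after centring each gene. For Ptpn6 they were Cyren (0.037), Glyr1 (0.072) and Rac2 (0.10). Rac2, a GTPase of blood cells, went from 600.2 ± 15.6 to 307 ± 24.4 CPM (SD, n = 3 each). For Inpp5d they were Patl1 (0.077), Frrs1 (0.083) and Plxnc1 (0.087). The nearest to Ptprc in this search, Syne1, Brca2 and Cep290, were far from it, with differences between 1.21 and 1.28. Genes as low as Ptprc, which never exceeded 0.471 CPM, were outside the search, so genes more like it may have been missed.

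Around the phosphatases stand the genes that recruit them, the kinases they act on and the enzymes they oppose. In 6 lists of such genes, 104 of 157 listed were tested; 10 fell (9.62% of those tested, against 2.18% of all genes) and none rose (0.417% of all genes) in the fit of group alone. With the block 46 fell (44.2%, against 15.6% of all genes) and 8 rose (7.69%, against 10.3%). These 46 include Dok3, Fcgr2b and Ceacam1, which were too low with doxycycline to pass the filter on low counts by that group. At an unadjusted p under 0.05 without the block 34 were lower (32.7%, against 9.56%) and 2 higher (1.92%, against 5.86%). DESeq2 called 22 lower (21.2%, against 5.1%) and 2 higher (1.92%, against 2.06%). The 2 higher genes were Mtm1 and Yes1 in both cases, named after their values were seen, with adjusted p of 0.013 and 0.017 by DESeq2. The lists were chosen with earlier results of these data known. Of 13 tested other classical tyrosine phosphatases 1 fell, Ptpn18, a phosphatase of the PEST group, and 5 fell with the block (median log2 fold change -0.29). Ptpn18 stood at 41.8, 28.2 and 28.2 CPM untreated and 10.3, 9.47 and 12.8 CPM with doxycycline, a log2 fold change of -1.59 (SE 0.22, edgeR adjusted p = 0.018). The 2 most abundant of that list, Ptpra and Ptpn1, had log2 fold changes of -0.02 and -0.11 (adjusted p = 0.97 and 0.87).

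Of 23 tested other inositol lipid phosphatases 1 fell, and 5 fell and 2 rose with the block (median -0.09). The faller was Inpp4b, which removes a phosphate from the lipid that SHIP enzymes leave. Its untreated mean of 91.3 ± 4.44 CPM became 36.4 ± 9.82 CPM (SD, n = 3 each), a log2 fold change of -1.33 (SE 0.21, edgeR adjusted p = 0.024). Inpp5b had 225 ± 11.9 and 182 ± 20 CPM, with a change of -0.31 (adjusted p = 0.32; under the block 0.023). On the side of PI 3-kinase, 3 of 21 tested genes fell, and 11 fell and 2 rose with the block (median -0.46). They were Dock2, a RAC activator (log2 fold change -2.74, SE 0.26, adjusted p = 0.0064), Pik3cg, the gamma catalytic subunit (-2.31, SE 0.29, adjusted p = 0.014), and Dapp1, an adaptor that binds the same lipids (-0.94, SE 0.18, adjusted p = 0.043).

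Of 20 tested adaptors and scaffolds 2 fell, and 9 fell and 1 rose with the block (median -0.49). Dok3, among those 9, was too low with doxycycline to pass the filter on low counts by that group. It had 0.0878, 0.164 and 0.191 CPM in doxycycline libraries 1, 2 and 3. Ptprcap, whose product associates with CD45, stood at 20.7, 19.9 and 8.98 CPM untreated and at 2.53, 3.32 and 2.13 CPM with doxycycline, a log2 fold change of -2.63 (SE 0.37, edgeR adjusted p = 0.018), in libraries where Ptprc never exceeded 0.471 CPM. Lat2, an adaptor of lipid rafts, had 1.42 ± 0.37 CPM untreated and 0.316 ± 0.096 CPM with doxycycline (SD, n = 3 each), a change of -2.15 (SE 0.36, adjusted p = 0.028). Of 25 inhibitory receptors that bind SH2 phosphatases 6 had enough reads to be tested, 1 fell, and all 6 fell with the block. These 6 could pass the filter through their untreated level alone, and Fcgr2b and Ceacam1 were too low with doxycycline to pass it by that group. Both are counted among the genes that fell with the block. Lair1, a collagen receptor that recruits SHP-1, had 6.02 ± 2.06 CPM untreated and 0.614 ± 0.452 CPM with doxycycline, a change of -3.29 (SE 0.55, adjusted p = 0.029). Sirpa, the receptor of CD47, had 6.21 ± 3.17 CPM and 3.90 ± 3.44 CPM (SD, n = 3 each), a change of -0.67 (adjusted p = 0.72; under the block 0.0077).

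Among kinases and receptors that these phosphatases act on, 2 of 21 tested fell, and 10 fell and 3 rose with the block (median -0.30). Tec, a kinase recruited by the PI 3-kinase lipid, had 72.9 ± 20.6 CPM untreated and 12.5 ± 3.45 CPM with doxycycline, a log2 fold change of -2.55 (SE 0.30, edgeR adjusted p = 0.014). Lyn, a SRC family kinase of erythroid and myeloid cells, had 81.4 ± 8.18 CPM and 35.7 ± 6.81 CPM (SD, n = 3 each), a change of -1.19 (SE 0.18, adjusted p = 0.023). The fall of Lyn was close in size to that of Ptpn6, and a difference between the 2 was not tested.

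**Figure D4:**
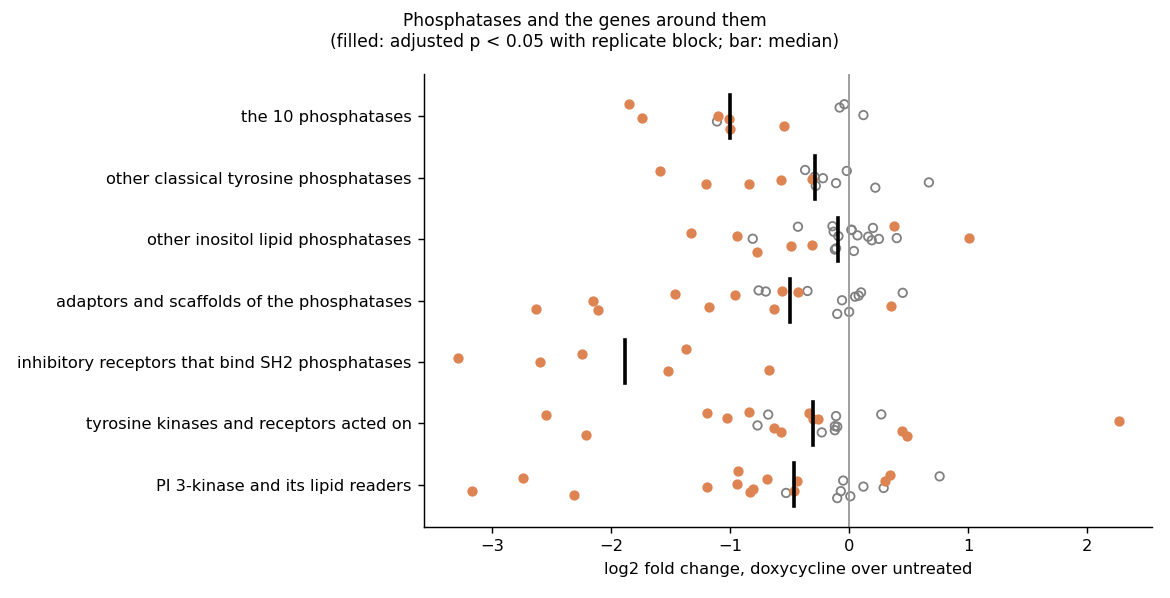
Log2 fold change from the fit of group alone (x axis) of the 10 phosphatases and of 6 lists of related genes (y axis), 1 point per tested gene, spread vertically for display; filled points have an adjusted p under 0.05 with the replicate block and black bars are medians. Medians lie between -0.49 and -0.09 for the lists other than the inhibitory receptors, of which few passed the filter on low counts, against 0.01 for all genes tested.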

How the data were processed

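Poly(A) RNA libraries were made with Illumina TruSeq RNA v2, per the labels' protocols. The authors deposited 1 table of raw counts per gene symbol with 6 library columns, each matched to a sample by its title. STAR, DESeq2, bcl2fastq 2.17.1.14, GRCm38 and mm10 are named, without a role, in the submitters' processing notes; for the counter, the annotation and the use of strand, names were not given in the sources used here. The smallest deposited count was 1 in each library, which appears to have been added. The deposited values were tested as they stand.

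edgeR 4.0.16 (limma 3.58.1, R 4.3.3) was fitted to the 14158 genes that filterByExpr kept (minimum count 10), with TMM factors, a quasi-likelihood F test on the group, two-sided, and Benjamini-Hochberg adjustment over all genes at 0.05. CPM use TMM-scaled library sizes, and the SE is the size of the log2 fold change over the square root of F. The same model was also fitted with a block for the replicate number. Across genes, deviations from the group mean correlated between libraries of equal number (0.75, 0.72 and 0.71), so equal numbers were treated as pairs; where no block is named, values are from the fit without it. The labels call the libraries biological replicates and do not say that cultures were separate, so p-values measure the spread between these samples, which may be technical. Gene positions and exon lengths are from GENCODE M21 (GRCm38). The procedure was tested on simulated data. DESeq2 1.42.0, other factors, other filters, 1 taken off each value and leaving out libraries were alternatives.

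The 10 genes and the lists of related genes and cell markers were chosen with earlier results of these data known. Named from each of the 6 lists were up to 4 genes with the smallest adjusted p under 0.05, and where fewer than 2 passed also the 2 most abundant tested. A gene that this rule names and a cell marker are not reported here. Patterns most like those of Ptprc, Ptpn6 and Inpp5d were named, 3 for each. Summed levels of the stromal and endothelial markers (8 of 10 in the table, all under 1 CPM) lay between 0.515 and 1.02 CPM untreated and between 0.331 and 0.544 CPM with doxycycline.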

Additional observations from a re-analysis of the deposited data

How the results depend on the processing

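Of the 14158 genes, 367 passed (59 higher, 308 lower); 3658 passed with the replicate block (1452 higher, 2206 lower), 1013 by DESeq2 (291 and 722), 3402 by DESeq2 under the block (1436 and 1966) and 182 of the 9301 genes with at least 5 mean CPM. Of the 10 phosphatases 2 passed, 6 with the block, 4 by DESeq2 (Ptpn6, Inpp5d, Ptpre and Ubash3b) and 6 by DESeq2 under the block. Over the 6 lists of related genes 10 passed, 54 with the block, 24 by DESeq2 and again 54 by DESeq2 under the block. Leaving out 1 library gave between 41 and 252 genes, 0 and 2 phosphatases and 1 and 8 related genes. Leaving out both libraries of a number, chosen after the data were examined, gave between 0 and 201 genes, 0 phosphatases and between 0 and 9 related genes, and with the block 1342, 3355 and 4672 genes, between 5 and 7 phosphatases and 32, 49 and 67 related genes. Fewer libraries were tested there; the cause of the other shifts was not tested. RLE factors, library totals alone, no filter on low counts and 1 taken off each value kept the count of 2 phosphatases.

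The direction changed for genes that passed in no fit of all 6 libraries. Without 1 library or both of a number, the log2 fold change of Ptprc ranged from -1.92 (without both numbered 3, with the block; -1.88 without it) to 0.50 (0.50 without untreated replicate 2, 0.30 without both libraries numbered 2, with the block too). That of Ptpn11 ranged from -0.20 to 0.11 (above 0 without untreated replicate 2, at 0.11, and doxycycline replicates 1 and 3, at 0.04 and 0.03), that of Ptprj from -0.36 to 0.15 (0.10 without untreated replicate 2, 0.15 without doxycycline replicate 3, 0.02 without both numbered 3 and 0.01 with the block) and that of Inppl1 from -0.03, without doxycycline replicate 2, to 0.24. The differences of the 2 ratios kept their sign in every alternative run, with a smallest possible p of 0.25 for pairs under the replicate block. Values of Ptprc and Ptpn22 are limited by depth, with at most 37 and 30 counts in a library.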
